A study of Mus musculus with 6 samples.

Results

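Fibrillar collagen is finished by enzymes that act before and after secretion, and the levels of 10 genes encoding such enzymes were compared between CD34 negative and CD34 positive cancer-associated fibroblasts (CAFs) of mouse mammary tumors. The genes were taken by symbol as the lysyl oxidase family (Lox, Loxl1, Loxl2, Loxl3 and Loxl4), the lysyl hydroxylases (Plod1, Plod2 and Plod3) and the catalytic alpha subunits P4ha1 and P4ha2 of collagen prolyl 4-hydroxylase. They are 10 of the 27179 genes with an identifier in the count table, and all 10 passed the filter on low counts, as did 14855 genes in total. Every tumor came from a raGFP-Wnt1 mouse, which carries an MMTV-Wnt1 transgene (FVB/NJ) that drives mammary tumors, and 1 copy of the Pdgfra H2B-GFP knock-in reporter (C57BL/6), which labels the nuclei of fibroblasts. GFP+ cells of each of 3 tumors were sorted into a CD34 negative and a CD34 positive fraction, which gave 6 bulk RNA-seq libraries, 3 per group. Both fractions share the transgene, the reporter allele and the tumor, the labels name no treatment, and the age of the tumor-bearing mice is not given in the sources used here. The gate rested on reporter activity and 1 surface protein, so each fraction may hold several kinds of fibroblast. Libraries are named below by CD34 status and by tumor 1, 2 or 3.

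Prolyl 4-hydroxylases act in the endoplasmic reticulum, where 4-hydroxyproline makes the collagen triple helix stable at body temperature. Lysyl hydroxylases act in the same compartment and convert chosen lysines to hydroxylysine, which can carry sugars and sets the chemistry of later cross-links. Lysyl oxidases are copper-dependent amine oxidases that work mainly outside the cell, where the aldehydes they form on lysine and hydroxylysine condense into the covalent cross-links of collagen and elastin. In mammary tumors this cross-linking is known for its part in stiffening the stroma.

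The 5 lysyl oxidases share a C-terminal catalytic domain, and Loxl2, Loxl3 and Loxl4 also carry scavenger receptor cysteine-rich domains. A stretch of 60 bases from the shared coding part is shown to let a reader see how alike and how separable the transcripts of 4 of them are (GENCODE M21, GRCm38; the stretch lies in 1 coding exon of each gene). Capitals mark the 38 bases that are identical in all 4.
Loxl1, exon 4 of 7, minus strand, chr9:58293615-58293674: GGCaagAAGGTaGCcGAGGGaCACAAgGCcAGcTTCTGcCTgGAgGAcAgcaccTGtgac
Loxl2, exon 11 of 14, plus strand, chr14:69689080-69689139: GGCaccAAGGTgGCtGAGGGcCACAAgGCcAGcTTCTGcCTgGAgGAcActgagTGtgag
Loxl3, exon 11 of 14, plus strand, chr6:83050168-83050227: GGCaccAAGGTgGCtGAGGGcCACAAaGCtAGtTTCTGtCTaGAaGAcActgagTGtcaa
Loxl4, exon 12 of 15, minus strand, chr19:42598705-42598764: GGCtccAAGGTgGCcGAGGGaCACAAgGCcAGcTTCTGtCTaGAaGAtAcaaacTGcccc
Over these 60 bases, identity to Loxl2 was 86.7% for Loxl3, 81.7% for Loxl1 and 76.7% for Loxl4. Over all 14 pairs of transcripts within the 3 families, the longest identical run was 32 bases.

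The sort and the tissue label were checked first. Cd34 was lower in the CD34 negative library of every tumor (log2 fold change of -3.63, adjusted p = 0.0414, limma-voom). Pdgfra, which the reporter follows, lay between 302 and 506 CPM in all 6 libraries, where CPM stands for counts relative to the library size, with TMM factors (trimmed mean of M-values) applied. Library totals ran from 16238059 to 86609267 counts, and the scarcest enzyme gene, Loxl4, still had 589 to 8202 counts per library, and the 10 genes together took between 0.361% and 0.640% of the counts. Negative library 3 stood apart, with counts for 14314 genes against 16253 to 19220 in the others.

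Among the 10 genes, 4 of the 5 lysyl oxidases were distributed unequally between the fractions of a tumor. Loxl3 and Loxl1 were higher in CD34 negative CAFs of all 3 tumors, by 2.44-fold and 1.56-fold, whereas Loxl4 and Loxl2 were lower in all 3, and the most abundant member, Lox, moved in no common direction. None of the lysyl or prolyl hydroxylases passed the test. These calls depend on whether the tumor enters the model. In limma-voom without a tumor term, 0 of 10 members passed an adjusted p of 0.05, against 0.121% of all tested genes. An unadjusted p under 0.05 was found for 4 of the 10 and for 2128 of the 14855 tested genes. DESeq2 without a tumor term also called 0 of 10 members, against 4.70% of all genes. With the tumor as a block, which compares the fractions within each tumor, 4 of 10 members passed, against 8.57% of all genes. Of these, 2 were higher in CD34 negative CAFs (4.32% of all genes) and 2 were lower (4.25% of all genes). By edgeR with the block 2 members passed (Loxl3 and Loxl4, 3.87% of all genes), by DESeq2 with the block the same 4 passed (11.7%), with the tumor as a random effect 1 passed (Loxl4, 4.73%), and after thinning all libraries to the smallest total the block called 4 (7.51%). Without tumor 1, 2 or 3 the block called 3, 2 and 5 members, against 7.61%, 5.82% and 13% of all genes. Leaving out tumor 3, which holds negative library 3, gave blocked log2 fold changes of 0.72 for Loxl1, -0.52 for Loxl2, 1.06 for Loxl3 and -1.42 for Loxl4, and all 4 still passed. A blocked fit without a tumor has few libraries left to estimate the spread of a gene. Its p-values therefore lean on the variance pooled over all genes. In bulk samples, a change in the share of cells that express a gene and a change in its RNA per cell cannot be told apart.

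**Figure D1:**
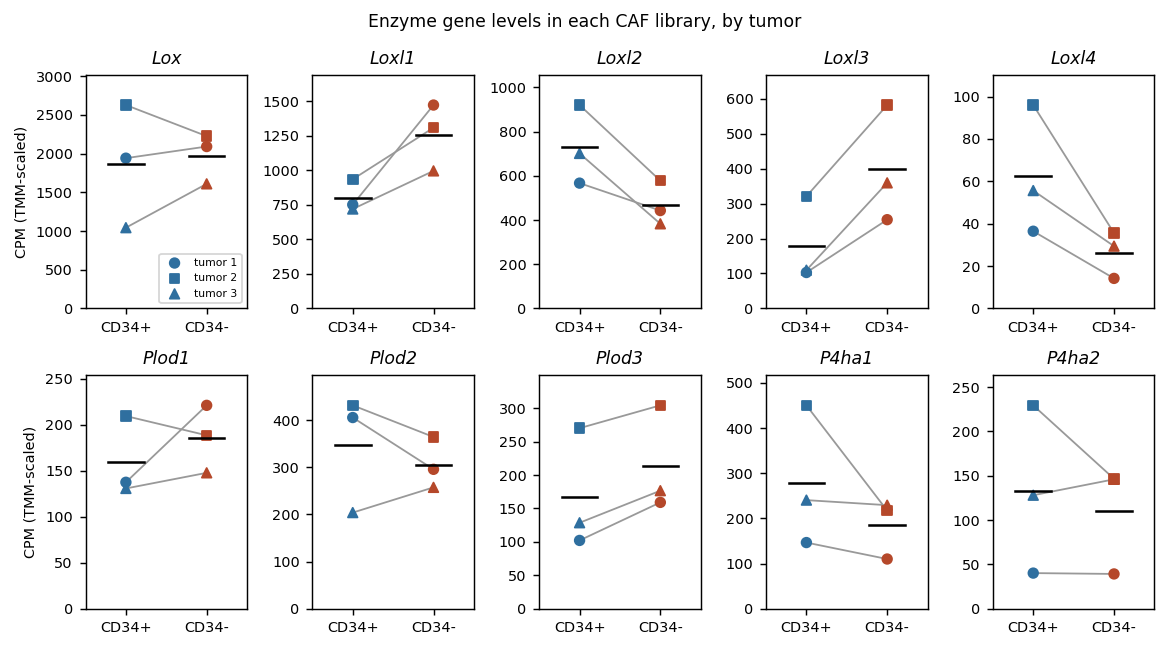
Levels of the 10 enzyme genes in CPM (TMM-scaled, linear axis from 0, a scale of its own in each panel) in the CD34 positive (left) and CD34 negative (right) library of tumor 1 (circle), 2 (square) and 3 (triangle). Grey lines join the libraries of a tumor and black bars are group means of 3 libraries. Loxl1 and Loxl3 climb from left to right in all 3 tumors, Loxl2 and Loxl4 drop in all 3, and the lines of Lox, Plod1, Plod2 and P4ha2 cross or run in mixed directions.

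Loxl3, which acts on collagen and on elastic fibers and is needed for palate and spine formation in mice, had the largest increase. It was measured at 254, 582 and 359 CPM in negative libraries 1, 2 and 3 and at 103, 321 and 109 CPM in positive libraries 1, 2 and 3. The groups overlapped because positive library 2 was above negative library 1, and within each tumor the negative library was above the positive one. The means were 398 ± 167 and 178 ± 124 CPM (SD, n = 3 each), with a log2 fold change of 1.34 ± 0.46 (SE) and an adjusted p of 0.247 without the block (limma-voom). With the block the change was 1.29 ± 0.17 (95% CI 0.90 to 1.67, adjusted p = 0.00281, limma-voom), and the log2 ratios were 1.30, 0.86 and 1.71 in tumors 1, 2 and 3. Loxl3 passed in every fit with a fixed tumor block, also without each tumor in turn, and missed the threshold with the tumor as a random effect (adjusted p = 0.0525, limma-voom). Loxl3 lies at chr6:83034205-83052566 on the plus strand, where its gene span overlaps that of Htra2 on the other strand by 1301 bases. Htra2 drew 8515 counts over all libraries against 85740 for Loxl3. The library kit does not mark strand, so reads from sequence that both genes transcribe cannot be told apart.

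Loxl1, the family member best known for elastic fiber upkeep, was the second most abundant of the 10 genes. Its levels were 1471, 1307 and 995 CPM in negative libraries 1, 2 and 3 and 750, 934 and 719 CPM in the positive ones. Every negative library was above every positive library. The means of 1258 ± 242 and 801 ± 116 CPM gave a log2 fold change of 0.65 ± 0.22 (adjusted p = 0.234, limma-voom), and with the block 0.64 ± 0.14 (95% CI 0.32 to 0.96, adjusted p = 0.0242, limma-voom). The ratio was largest in tumor 1 (0.97) and near equal in tumors 2 and 3 (0.48 and 0.47). Without tumor 1 the blocked change was 0.48 (adjusted p = 0.0857, limma-voom) and without tumor 2 it was 0.71 (adjusted p = 0.0551, limma-voom), so the call was lost without either of them. edgeR with the block did not call it (adjusted p = 0.0919). Loxl1 lies at chr9:58287723-58313212 on the minus strand.

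Loxl4, the least abundant member, moved the other way. It was at 14.2, 35.6 and 29.4 CPM in negative libraries 1, 2 and 3 and at 36.5, 96.0 and 55.6 CPM in the positive ones. The groups did not overlap, although negative library 2 came within 1 CPM of positive library 1. The means were 26.4 ± 11 and 62.7 ± 30.4 CPM, a log2 fold change of -1.36 ± 0.43 (adjusted p = 0.214, limma-voom). With the block it was -1.25 ± 0.17 (95% CI -1.63 to -0.87, adjusted p = 0.0031, limma-voom), a level of 0.421 times that of CD34 positive CAFs, with log2 ratios of -1.36, -1.43 and -0.92. Loxl4 is the only member that passed in every fit with a tumor term, whether fixed or random, with or without thinning, in all 3 tools and without each tumor. It lies at chr19:42592279-42612806 on the minus strand.

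Loxl2, which cross-links collagen IV as well as fibrillar collagens, was also lower in CD34 negative CAFs. Its levels were 443, 578 and 383 CPM in the negative and 567, 921 and 702 CPM in the positive libraries of tumors 1, 2 and 3. The groups overlapped by a narrow margin, between negative library 2 and positive library 1, and the ratio was below 0 on the log2 scale in each tumor, at -0.36, -0.67 and -0.87. The means were 468 ± 99.9 and 730 ± 178 CPM, with a log2 fold change of -0.61 ± 0.24 (adjusted p = 0.316, limma-voom) and, with the block, -0.63 ± 0.14 (95% CI -0.94 to -0.32, adjusted p = 0.0227, limma-voom). Without tumor 2 the blocked change was -0.62 (adjusted p = 0.105, limma-voom), and edgeR with the block gave an adjusted p of 0.0837. Loxl2 lies at chr14:69608692-69695834 on the plus strand, across from the long noncoding gene Gm27177, which is not in the count table.

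Lox, the founding member of the family, had no common direction. It was at 2092, 2226 and 1610 CPM in the negative and at 1941, 2627 and 1043 CPM in the positive libraries of tumors 1, 2 and 3. The ratios were 0.11 and -0.24 in tumors 1 and 2 and 0.63 in tumor 3, where the positive library was the lowest of all 6. The log2 fold change was 0.19 ± 0.34 (adjusted p = 0.837, limma-voom). With the block it was 0.17 (95% CI -0.20 to 0.55, adjusted p = 0.606, limma-voom), an interval that leaves room for a modest difference in either direction, and without tumor 3 it was -0.07.

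**Figure D2:**
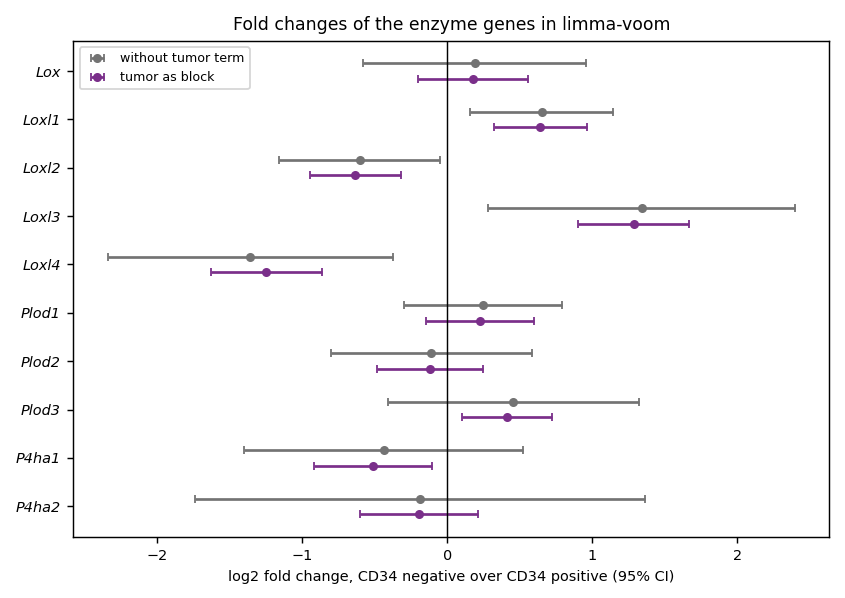
Log2 fold changes of the 10 enzyme genes, CD34 negative over CD34 positive CAFs, as points with 95% confidence intervals from limma-voom without a tumor term (grey, upper of each pair) and with the tumor as a block (purple, lower of each pair). The vertical line is no difference. The estimates hardly move between the fits while the intervals narrow, from 0.28 to 2.40 down to 0.90 to 1.67 for Loxl3, for example.

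The lysyl hydroxylases differed less, and 0 of 3 passed in any fit. Plod3, which is both a lysyl hydroxylase and a glycosyltransferase, was higher in the negative library of all 3 tumors. It was at 159, 304 and 177 CPM in negative and at 102, 270 and 129 CPM in positive libraries 1, 2 and 3, with groups that overlapped because positive library 2 was above negative libraries 1 and 3. Its blocked log2 fold change was 0.41 (95% CI 0.10 to 0.72, adjusted p = 0.108, limma-voom). Its gene span, chr5:136987019-136996646, overlaps that of Znhit1 on the other strand by 941 bases, and Znhit1 drew 3551 counts against 57461 for Plod3. Plod2, the enzyme that hydroxylates lysines of the collagen telopeptides and so favors the more stable type of cross-link, was at 296, 364 and 257 CPM in negative and at 406, 432 and 204 CPM in positive libraries 1, 2 and 3 (chr9:92539636-92608428). It was lower in CD34 negative CAFs of tumors 1 and 2 and higher in those of tumor 3, with a blocked log2 fold change of -0.12 (95% CI -0.48 to 0.24, adjusted p = 0.727, limma-voom). Plod1, which acts on lysines of the helix, was at 221, 188 and 148 CPM in negative and at 137, 209 and 131 CPM in positive libraries 1, 2 and 3 (chr4:147909753-147936776). It was higher in the negative libraries of tumors 1 and 3 and lower in that of tumor 2, with a blocked change of 0.23 (95% CI -0.15 to 0.60, adjusted p = 0.477, limma-voom). Without tumor 1 that change was 0.0086 and without tumor 2 it was 0.42, and neither passed.

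The prolyl 4-hydroxylase subunits varied more between tumors than between fractions. P4ha1, the main catalytic subunit in most tissues, was at 110, 217 and 229 CPM in the negative and at 147, 450 and 240 CPM in the positive libraries of tumors 1, 2 and 3 (chr10:59323197-59373304). It was below the positive library in each tumor, but in tumor 3 only slightly so. The blocked log2 fold change was -0.51 (95% CI -0.92 to -0.11, adjusted p = 0.125, limma-voom). Without tumor 3 it was -0.75 and passed (adjusted p = 0.0119, limma-voom), and without tumor 2, the tumor with the widest gap, it was -0.25 (adjusted p = 0.761, limma-voom). P4ha2, the second catalytic subunit, was at 39.3, 147 and 146 CPM in negative and at 40.2, 230 and 128 CPM in positive libraries 1, 2 and 3 (chr11:54100924-54131668). Both libraries of tumor 1 were far below the rest, and the blocked change was -0.19 (95% CI -0.60 to 0.21, adjusted p = 0.591, limma-voom).

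Several members are known to respond to low oxygen. Promoters of the members were therefore searched for the core of the site bound by hypoxia-inducible factors. The letters searched were ACGTG and GCGTG on both strands, and an ACGTG inside CACGTG was counted on each strand. An entry was found for 5 of the 10 members among the RefSeq promoters (GRCm38.p6), namely P4ha1, P4ha2, Plod1, Plod3 and Loxl4. In the 250 bases before the gene start, P4ha2 held 3 matches, Plod3 held 4, and Plod1 and Loxl4 held 1 each. The table's window for P4ha1 reaches past the gene start given above, so no count is given for it. Of 32851 promoters of the same length, 38.6% held at least 1 match and 6.6% held at least 3. The windows of Loxl4, the member that passed in most fits, and of P4ha2, with 3 matches, are shown, with matches in capitals.
Loxl4, minus strand, chr19:42612807-42613056: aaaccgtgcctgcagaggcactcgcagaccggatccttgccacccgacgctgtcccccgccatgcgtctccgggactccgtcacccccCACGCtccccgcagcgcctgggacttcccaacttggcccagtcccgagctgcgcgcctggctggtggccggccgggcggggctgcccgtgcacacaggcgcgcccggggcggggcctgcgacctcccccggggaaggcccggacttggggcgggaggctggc
P4ha2, plus strand, chr11:54100674-54100923: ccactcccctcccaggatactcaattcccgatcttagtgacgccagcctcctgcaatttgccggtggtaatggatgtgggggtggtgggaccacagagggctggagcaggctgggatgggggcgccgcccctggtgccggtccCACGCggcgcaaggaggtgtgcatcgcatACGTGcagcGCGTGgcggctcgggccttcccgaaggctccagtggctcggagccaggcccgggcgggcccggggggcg
A match describes the letters of the window and is no evidence of binding.

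Direction and separation of the 10 genes were set beside those of all genes. Of the 10 members, 6 had the same sign in all 3 tumors, against 46.3% of all tested genes. These were 3 higher in CD34 negative CAFs (Loxl1, Loxl3 and Plod3), against 22.8% of all genes, and 3 lower (Loxl2, Loxl4 and P4ha1), against 23.4%. The groups did not overlap for 2 of 10 members, Loxl1 above and Loxl4 below, which is near the 20.4% of all genes (10.4% higher and 10% lower) that were separated in this way. In these counts the members were close to genes at large.

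Levels between genes were compared per kilobase of gene length, as CPM per kb over all 6 libraries. Lox led with a mean of 534 CPM per kb, rank 107 among the tested genes, followed by Loxl1 with 308, Loxl2 with 116 and Plod2 with 88.0. This order held in 6 of 6 libraries for each of these neighbors. Loxl3 (71.1), Plod3 (58.0), P4ha1 (57.5), Plod1 (53.0) and P4ha2 (51.9 CPM per kb) followed, and neighbors from Plod2 to P4ha2 changed places between libraries, each being above the next in 2 to 4 of 6. Loxl4 came last with 8.19 CPM per kb and was below P4ha2 in 6 of 6 libraries.

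The makeup of the lysyl oxidase family was then expressed as each member's share of the family's counts per kb in a library. Lox made up 49.0% ± 0.470 of the family in CD34 negative CAFs and 53.0% ± 9.02 in CD34 positive CAFs (SD, n = 3 each), an exact permutation p of 0.4 in a design that cannot go below 0.10. Loxl2 accounted for 7.30%, 8.78% and 8.10% in negative libraries 1, 2 and 3 and for 12.1%, 13.8% and 20.0% in the positive ones, without overlap (exact permutation p = 0.1). Loxl4 was at 0.443% against 1.21%, also without overlap (exact permutation p = 0.1), Loxl1 at 33.7% against 26.1% (exact permutation p = 0.2) and Loxl3 at 8.79% against 4.32% (exact permutation p = 0.2). In each tumor, Loxl1 and Loxl3 gave a larger share of the family in CD34 negative CAFs, and Loxl2 and Loxl4 a smaller one. Loxl3 was above Loxl2 in the shares of negative libraries 2 and 3, at 11.3% and 9.72%, and below it in the other 4 libraries. Within the lysyl hydroxylases, Plod3 took a larger share in the negative library of all 3 tumors (mean 31.3% against 25.9%, exact permutation p = 0.4), and P4ha1 took a smaller share of the prolyl 4-hydroxylase subunits in all 3 (51.9% against 57.7%, exact permutation p = 0.5). Within tumors the share of P4ha1 differed by -5.80 ± 1.27 percentage points and that of Loxl4 by -0.765 ± 0.216 (mean and SD of 3 paired differences), each with 1 sign in all 3 tumors and an exact sign-flip p of 0.25, the smallest that 3 pairs allow. Neither exact test can reach 0.05 at this size.

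**Figure D3:**
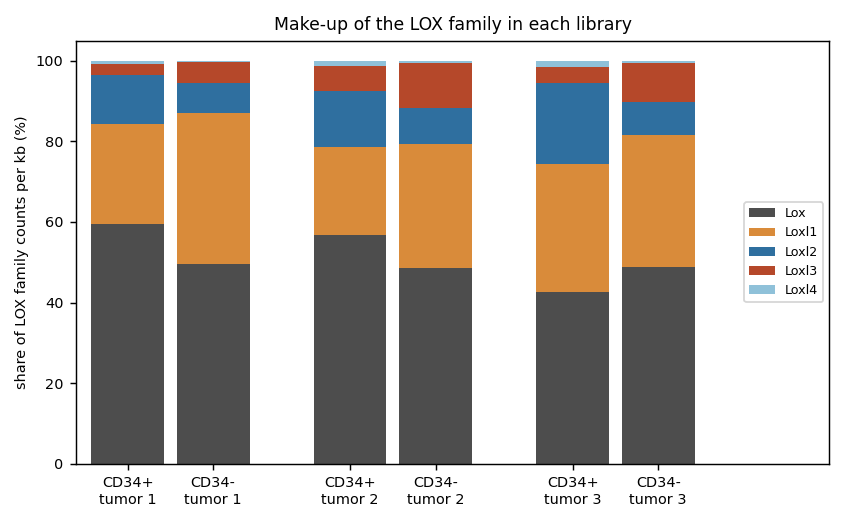
Share of each lysyl oxidase gene in the counts per kb of the family (percent, stacked bars from 0 to 100), 1 bar per library, with the CD34 positive and the CD34 negative library of a tumor side by side. Lox and Loxl1 fill most of every bar, the Loxl2 segment is wider in the CD34 positive bar of each tumor (12.1%, 13.8% and 20.0%), and the Loxl3 segment is wider in the CD34 negative bar.

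The enzymes were also set against their main substrates, as the log2 ratio of a family's summed counts per kb to those of Col1a1, Col1a2, Col3a1, Col5a1 and Col5a2. The lysyl oxidases had a mean ratio of -3.80 in CD34 negative and -4.10 in CD34 positive CAFs, a difference of 0.29 (exact permutation p = 0.6). The lysyl hydroxylases differed by 0.15 (exact permutation p = 0.7) and the prolyl 4-hydroxylase subunits P4ha1 and P4ha2, without P4ha3, by -0.32 (exact permutation p = 0.7). The difference had mixed signs over the tumors for all 3 families. The SD of the paired differences was 0.41, 0.49 and 0.59 in the same order, with exact sign-flip p of 0.5, 0.75 and 0.5. Col1a1 and Col1a2, the chains of collagen I, had blocked log2 fold changes of 0.45 and 0.35 (adjusted p of 0.166 and 0.271, limma-voom), and Col3a1, the chain of collagen III, had -0.59 (adjusted p = 0.0877, limma-voom). Col3a1 passed by DESeq2 with the block (adjusted p = 0.0223) and with the block without tumor 1 (-0.87, adjusted p = 0.00135, limma-voom). Without tumor 1, Col1a1 was at 0.19 and Col1a2 at 0.11 with the block, and neither passed.

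Other genes of the pathway were read as lists of 74 genes, 71 of them tested. Without the block 0 of 71 passed in limma-voom, where 17 had an unadjusted p under 0.05, as did 2128 of the 14855 tested genes. With the block 9 were higher and 9 lower in CD34 negative CAFs, against the 4.32% and 4.25% of all genes given above. By edgeR with the block 5 of 71 passed, namely Adamts2, Pcolce2, Adm, Ndrg1 and Pmepa1. The medians given for the lists are log2 fold changes of the fit without the block, where the median over all tested genes was -0.03. In the list of propeptide processing, with 1 higher and 2 lower of 7 tested and a median of -0.04, members moved in opposite directions. Adamts2, the main protease that removes the N-propeptide of collagen I, was at 1065, 1243 and 762 CPM in negative and at 408, 582 and 411 CPM in positive libraries 1, 2 and 3. All negative libraries were above all positive ones, and the blocked change was 1.12 ± 0.14 (adjusted p = 0.00199, limma-voom). Pcolce2, an enhancer of C-propeptide removal, was at 8.39, 23.5 and 30.5 CPM in negative and at 105, 99.8 and 235 CPM in positive libraries. It had the largest decrease of any gene in these lists that passed (-2.83 ± 0.25, adjusted p = 0.000492, limma-voom with the block), while its homolog Pcolce had a change of 0.11 in the same fit (adjusted p = 0.672, limma-voom with the block). Adamts14, a minor N-propeptidase, fell by 0.85 on the log2 scale with the block (adjusted p = 0.0246, limma-voom), and did not pass without tumor 2 (-0.86, adjusted p = 0.151, limma-voom).

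Among the fibrillar collagens and elastin, 2 of 12 were higher with the block and none lower, against 4.32% and 4.25% of all genes (median log2 fold change 0.29). Col5a2, a chain of the collagen V that seeds fibrils, rose by 0.64 (adjusted p = 0.0186, limma-voom with the block), and was not called without tumor 2 (0.71, adjusted p = 0.0926, limma-voom). Col11a1, a marker of myofibroblastic CAFs, rose by 2.08 (adjusted p = 0.0155, limma-voom with the block), and its ratio of 3.93 in tumor 3 was far above the 1.19 and 1.41 of tumors 1 and 2. Of the 6 proteins that bind lysyl oxidases or guide fibrils, 1 was higher and 1 lower (median 0.09). Fmod, the small proteoglycan fibromodulin that binds collagen and modulates where Lox acts, rose by 2.08 (adjusted p = 0.0228, limma-voom with the block), again with the widest ratio in tumor 3 (4.04 against 0.93 and 1.46). Without tumor 3 the blocked changes of Col11a1 and Fmod were 1.29 and 1.18, and both passed (adjusted p of 0.000252 and 0.000812, limma-voom). With all tumors kept, neither passed by edgeR with the block (adjusted p of 0.0883 and 0.115). Fn1, fibronectin, which binds Lox and propeptide proteases, fell by 0.80 on the log2 scale (adjusted p = 0.0182, limma-voom with the block), and did not pass without tumor 2 (-0.72, adjusted p = 0.107, limma-voom).

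The next lists held at most 1 call each with the block, against 4.32% of all genes higher and 4.25% lower. Of 10 other hydroxylation and glycosylation genes, 1 was higher (median 0.22), namely P3h3, a prolyl 3-hydroxylase family member (0.57, adjusted p = 0.0243, limma-voom with the block). The third alpha subunit, P4ha3, was at 162 ± 39.3 and 138 ± 22.2 CPM (blocked change 0.22, adjusted p = 0.339, limma-voom). None of 7 genes of collagen folding and export passed (median -0.04), of 5 genes of copper, ascorbate and metal supply 1 was higher (median 0.20), the zinc transporter Slc39a13 that lysyl hydroxylation needs (0.53, adjusted p = 0.0458, limma-voom with the block), and of 4 other matrix cross-linkers 1 was lower (median -0.42), the peroxidasin Pxdn, which cross-links collagen IV (-0.55, adjusted p = 0.0422, limma-voom with the block). P3h3, Slc39a13 and Pxdn were not called by edgeR with the block (adjusted p of 0.0788, 0.0791 and 0.116). Without tumor 2 the block did not call them either (adjusted p of 0.0888, 0.196 and 0.424, limma-voom), nor Slc39a13 without tumor 1 (adjusted p = 0.137, limma-voom).

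Genes of signals known to act on these enzymes moved in both directions. Of 12 genes of the hypoxia response, 4 were lower in CD34 negative CAFs with the block, against 4.25% of all genes, and none higher (median log2 fold change of -0.48 without the block). The list was mixed: 4 genes were lower in all 3 tumors and 2 were higher in all 3. The latter were Slc2a1 (0.30, adjusted p = 0.309, limma-voom with the block) and Car9, which had few counts. Vegfa (-0.17) and Ldha (-0.27) had mixed signs over the tumors and were not called with the block. Adm, which encodes adrenomedullin, was at 88.7, 82.0 and 32.6 CPM in negative and at 166, 337 and 203 CPM in positive libraries 1, 2 and 3. The groups did not overlap (-1.82 ± 0.26, adjusted p = 0.00397, limma-voom with the block), and edgeR with the block gave the same call (adjusted p = 0.0341). Ndrg1, a stress-responsive gene, fell by 0.73 on the log2 scale (adjusted p = 0.0109, limma-voom with the block). The glycolytic gene Pgk1 (-0.94, adjusted p = 0.0354, limma-voom with the block) and the kinase gene Pdk1 (-1.12, adjusted p = 0.0235, limma-voom with the block) also passed, with overlapping groups and, for Pdk1, a ratio of 0.00 in tumor 1. Without tumor 2 neither Ndrg1 (-0.61), Pgk1 (-0.49) nor Pdk1 (-0.98) was called, with adjusted p of 0.109, 0.409 and 0.116 (limma-voom with the block).

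Of 8 genes of the TGF-beta response, 3 were higher and 1 lower with the block, against 4.32% and 4.25% of all genes (median 0.41). Pmepa1, a feedback inhibitor of the pathway, was at 709, 683 and 717 CPM in negative and at 371, 299 and 194 CPM in positive libraries 1, 2 and 3. The groups did not overlap, and it had the lowest adjusted p of the list (1.34 ± 0.18, adjusted p = 0.00282, limma-voom with the block). Ccn2, a matricellular growth factor, rose by 1.09 (adjusted p = 0.0087, limma-voom with the block; 0.0531 by edgeR) and Bhlhe40, a transcription factor, by 0.52 (adjusted p = 0.0313, limma-voom with the block). Bhlhe40 was not called without tumor 2 (0.49, adjusted p = 0.304, limma-voom with the block). Tgfbi, a matrix adhesion protein, fell by 1.51 on the log2 scale (adjusted p = 0.00674, limma-voom with the block), and edgeR did not call it (adjusted p = 0.0543).

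**Figure D4:**
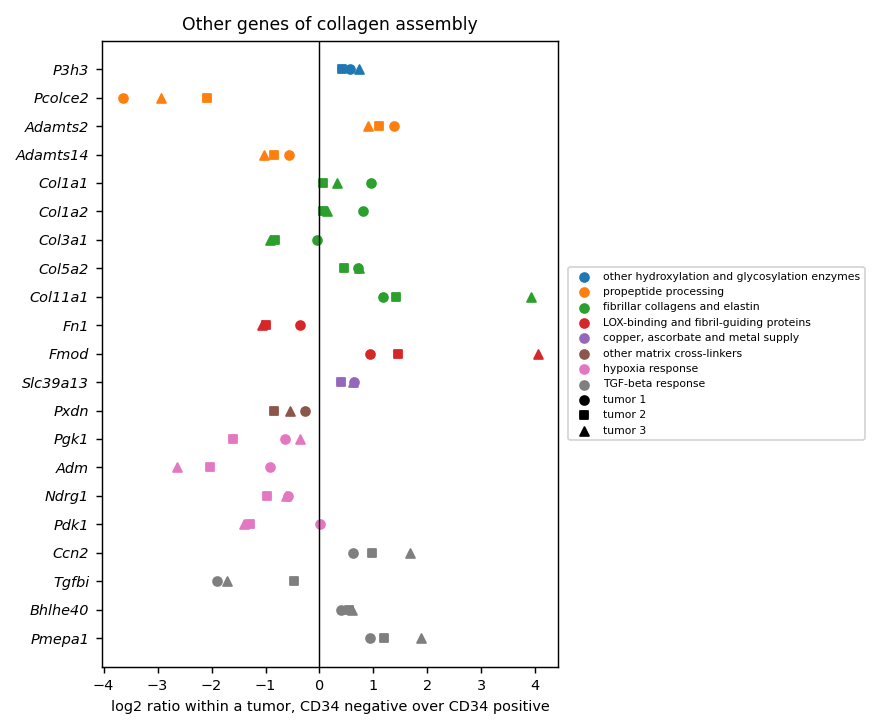
Log2 ratios within a tumor, CD34 negative over CD34 positive CAFs, for the named genes of the collagen pathway lists, colored by list, with tumor 1 as circles, tumor 2 as squares and tumor 3 as triangles. Points right of the vertical line are higher in CD34 negative CAFs. Adamts2 and Pcolce2 lie on opposite sides (ratios of 0.89 to 1.38 and of -3.65 to -2.08), and tumor 3 stands apart for Col11a1 and Fmod.

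For Loxl4, the member with the smallest unadjusted p without the block (with it, Loxl3 was lower, at 2.86e-05 against 3.61e-05, limma-voom), the 5 genes with the most similar log2 ratios in the 3 tumors were taken from the 9016 genes whose log2 CPM averaged 3 or more. They were Vldlr, a lipoprotein receptor, Rpl36a and Rps6, ribosomal proteins, Cdon, a cell adhesion receptor, and C1galt1, an enzyme of O-glycan extension. The largest difference from Loxl4 in any tumor ran from 0.14 (Vldlr) to 0.18 (C1galt1) on the log2 scale. Only 3 ratios enter this ranking, and Rpl36a and Rps6 have processed copies in the genome with which reads may be shared.

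Markers of other cell types were measured beside these results, as summed CPM scaled by the library total. The 6 fibroblast markers summed to 50547 to 60708 in negative and to 60094 to 78703 in positive libraries. Col1a1 and Col3a1, described above as substrates, made up most of these sums. Dcn and Lum were lower in CD34 negative CAFs with the block, and Pdgfra and Pdpn were not called. The 8 epithelial markers summed to 63.3 to 167 and to 23.7 to 152 CPM, higher in the negative library of all 3 tumors, and none was called. The 8 immune markers summed to 13.4 to 17.5 and to 6.77 to 19.9 CPM, with Ptprc and Cd68 at 0 in at least 1 library. The 6 endothelial markers summed to 6.09 to 21.1 and to 7.54 to 28.5 CPM, with Cdh5, Tie1 and Emcn at 0 in at least 1 library. The 6 pericyte markers summed to 199 to 237 and to 85.6 to 187 CPM, higher in the negative library of all 3 tumors, with Mcam, Notch3 and Cspg4 higher and Kcnj8 and Abcc9 lower with the block. Loxl1 and Loxl3 were higher, and Loxl2 and Loxl4 lower, in the libraries with the higher epithelial and pericyte sums of each tumor, and the part of these cells in the differences was not tested.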

How the data were processed

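RNA was sequenced from 6 libraries of sorted CAFs (TruSeq RNA v2). Per the study's methods, alignment to GRCm38/mm10 and counting per NCBI gene used Rsubread. The authors deposited raw read counts per gene, 1 column per library, beside a gene length in bases. Strand setting and treatment of reads with several matches are not given in the sources used here. Titles of the samples gave the group and the tumor number.

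As in the study's methods, genes were filtered with filterByExpr, scaled by TMM factors and compared by limma-voom. The methods state no design formula. Chosen here were a minimum count of 10 and a fit on the group alone, two-sided. Benjamini-Hochberg adjustment ran over all tested genes, with a threshold of 0.05. This group-only fit ignores the pairing by tumor and called 3 genes higher in CD34 negative CAFs, against 642 with the block. The study reports many more genes than 3 as higher in this comparison, so its calls came from another fit or threshold. Versions were limma 3.58.1, edgeR 4.0.16 and DESeq2 1.42.0 under R 4.3.3. Genes without a symbol (0.457% to 0.619% of counts) were kept, a departure from the methods, which drop unannotated genes. A positive log2 fold change means higher in CD34 negative CAFs, and a ratio within a tumor is the difference of its voom log2 CPM values. Both fractions of a number came from the same tumor, which pairs the libraries; deviations from the group means correlated at 0.373, 0.350 and 0.219 across genes within tumors 1, 2 and 3. The blocked fit is given for every enzyme gene and for most other named genes, for some of them alone. Replicates were separate tumors and differed beyond counting noise (chi-square of 111 to 198 per gene). Shares and ratios were compared by two-sided exact permutation over libraries, and the ratios and some shares also by exact sign-flip over tumors.

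The 10 genes, the pathway lists and the marker lists were chosen with earlier results of these data known. Named pathway genes were those with an adjusted p under 0.05 with or without the block, at most 5 per list by fold change, plus Col1a1, Col1a2 and Col3a1; P4ha3, Pcolce, Cd34, Pdgfra and the named markers are given for context. Alternatives covered normalization, filter, annotation, test, block, depth, and each library or tumor left out. On simulated data with 200 of 14336 genes changed by 2 on the log2 scale, limma-voom recovered 157 with 0 false calls, and with the block 198 with 24 false calls. With the block, edgeR recovered 200 with 15 false calls and DESeq2 200 with 49. In each tool with the block, false calls were thus a larger share of the calls than the threshold of 0.05. Changed genes had a mean log2 CPM of at least 3. Their change was above that of any enzyme gene in the main or blocked fit, so recovery does not measure power for the enzyme genes.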

Additional observations from a re-analysis of the deposited data

How the results depend on the processing

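All values below refer to limma-voom unless another tool is named. Without the tumor block, no alternative called an enzyme gene. With the tumor as a replicate block 4 of the 10 enzyme genes, 18 pathway genes and 1273 of all genes were called, against 0, 0 and 18 without it. The counts were 2, 5 and 575 by edgeR with the block, 4, 18 and 1733 by DESeq2 with the block, 1, 7 and 703 with the tumor as a random effect, and 4, 16 and 1028 with the block after thinning. With the block and without tumor 1, 2 or 3 they were 3, 20 and 1134, then 2, 8 and 851, then 5, 22 and 2019. Without the block, edgeR called 9 of all genes, DESeq2 698 (6 pathway genes) and sample quality weights 161 (2 pathway genes). Leaving out a library or a tumor without the block gave 0 enzyme genes, 0 to 2 pathway genes and 0 to 86 of all genes.

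Loxl1, Loxl2, Loxl3, Loxl4, Plod1, Plod3 and P4ha1 kept their direction in all 25 alternatives. Plod2 turned positive with quality weights (0.067) and without negative library 3 (0.02), positive library 1 (0.072), positive library 2 (0.04) or tumor 1 (0.072, and 0.045 with the block). P4ha2 turned positive without negative library 1 (0.42), without positive library 2 (0.32) and, with the block, without tumor 2 (0.090). Lox turned negative without positive library 3 (-0.19) and without tumor 3 (-0.05, and -0.075 with the block). With single libraries or tumors left out and no block, Plod2 ranged from -0.47 to 0.072, P4ha2 from -0.84 to 0.42 and Lox from -0.19 to 0.43. The cause was not tested. Thinning all libraries to the smallest total left 4 enzyme genes called with the block.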
